A study of Mus musculus with 8 samples.

Results

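The unfolded protein and amino acid stress genes are 39 genes, chosen by symbol, that cells are known to use when proteins misfold in the endoplasmic reticulum (ER) or when amino acids run short. All 39 have a probe set on the arrays, out of 18193 genes that could be read, and each gene is represented by the brightest of its probe sets that carry its symbol alone. RNA came from mouse bone marrow-derived dendritic cells (BMDCs) that were treated with 75 µg/mL [BF/S+L/Ep], the butanol fraction of a stem and leaf extract of *Echinacea purpurea*, or with the vehicle, and the final medium of both contained 0.1% DMSO. The 8 Affymetrix arrays form 4 groups of 2, since each treatment was harvested after 4 h or after 12 h. By the study's methods the marrow was taken from BALB/c females 6 weeks old, and the non-adherent cells were used as immature DCs after 9 days in GM-CSF (the labels give 200 U/mL, the methods a higher dose). Every group is therefore a bulk culture of 1 strain and sex, kept in a medium with added non-essential amino acids, and no untreated or LPS-treated array and no array of a known ER stressor was analysed here. The study calls the 2 arrays of a group biological and cell culture replicates, run on separate chips. For its gene lists it required a change in 2 independent experiments. The labels only number the arrays. Neither source says whether separate animals gave the cultures, or which treated and vehicle arrays share an experiment. The p-values below measure the spread between these arrays.

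The unfolded protein response has 3 known sensors in the ER membrane. PERK, encoded by *Eif2ak3*, phosphorylates eIF2α, which slows translation in general but favours that of the transcription factor ATF4, and other kinases reach the same step when amino acids are scarce. IRE1, encoded by *Ern1*, splices the *Xbp1* mRNA, and the spliced form encodes an activator of genes for secretion and degradation. ATF6 moves to the Golgi, is cut there, and then turns on ER chaperone genes together with XBP1. DCs are known to carry an active IRE1 and XBP1 arm. The arrays measure mRNA levels, not splicing of *Xbp1*, cleavage of ATF6 or translation of ATF4. The genes are described in 3 branches, the ATF4 branch with 17 genes, the XBP1 branch with 8, and ATF6 with the chaperones that XBP1 shares with it, 14 genes. Several targets answer to more than 1 branch, so the split is one of convenience.

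The values are MAS5 signals on a linear scale. Signals of a time are given with replicates 1 and 2 of the vehicle first, then those of [BF/S+L/Ep], and differences are on the log2 scale with their standard error (SE) or 95% interval. As a measure of background, each array has a reference, the level under which 95% of 83 receptor probe sets for smell and taste fell, and it lay between 66.7 and 107. Of the 39 genes, 35 were above the reference on all 8 arrays. *Trib3* was above it on 5 arrays, *Chac1* and *Slc7a5* on 4, and *Vldlr*, a lipoprotein receptor gene, on none (0 of 8 arrays), so that no fold is given for *Vldlr*. The cells had the markers of the label: 11 of 12 dendritic cell markers were above the reference on all 8 arrays, *Flt3* on 6. Of the other lists, 3 of 7 neutrophil markers and all 5 macrophage markers were above it on all 8 arrays, while the 3 T and NK cell and the 2 erythroid markers were above it on no array. Of 7 B and plasma cell markers, *Ighm* and *Sdc1* were above on all 8 arrays and 4, *Cd79a* and *Jchain* among them, on no array. None of the 3 mast cell and 3 stromal markers was above it on all 8 arrays. The summed macrophage signal moved with time, as given beside the time results below.

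Promoter sequences are shown because the branches are known to act through short DNA elements, and because they show which genes share one. RefSeq promoter windows (GRCm38.p6, 250 bases before to 50 after the start) were at hand for 35 of the 39 genes. No window was used for *Atf6*, *Hyou1*, *Manf* and *Slc7a5*. The ER stress response element was searched as CCAAT, any 9 bases, then CCACG, on both strands. It was in the windows of 8 of the 35 genes (22.9%) and in 0.119% of 32851 windows of all genes. The genes were chosen by symbol as known genes of these responses, so such shares, here and for the elements below, are not a test. The first share counts genes and the second windows. A match describes the letters and is not evidence of binding. Each match is printed with 15 bases on either side, in the direction of the motif, which is in capitals:
*Hspa5*, chr2:34772010-34772058, + strand, middle 56 bases before the start: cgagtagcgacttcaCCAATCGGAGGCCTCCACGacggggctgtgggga
*Calr*, chr8:84847060-84847108, + strand, 152 before: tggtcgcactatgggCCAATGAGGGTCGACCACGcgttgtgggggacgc
*Hsp90b1*, chr10:86705623-86705671, - strand, 202 before: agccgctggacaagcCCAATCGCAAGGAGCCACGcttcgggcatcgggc
*Hsp90b1*, chr10:86705518-86705566, + strand, 98 before: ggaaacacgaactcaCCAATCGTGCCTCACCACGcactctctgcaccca
*Canx*, chr11:50325785-50325833, - strand, 136 before: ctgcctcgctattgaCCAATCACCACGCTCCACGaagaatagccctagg
*Pdia6*, chr12:17266476-17266524, + strand, 88 before: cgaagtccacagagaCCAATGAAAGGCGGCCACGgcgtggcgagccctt
*Dnajc3*, chr14:118937812-118937860, + strand, 96 before: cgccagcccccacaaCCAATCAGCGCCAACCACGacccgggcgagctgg
*Creld2*, chr15:88819505-88819553, - strand, 116 before: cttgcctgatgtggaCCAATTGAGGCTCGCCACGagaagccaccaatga
*Syvn1*, chr19:6046517-6046565, + strand, 34 before: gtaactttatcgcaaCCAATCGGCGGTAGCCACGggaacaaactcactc

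None of these 8 genes belongs to the ATF4 branch. The related element ERSE-II, ATTGG, any base, then CCACG, was found in 1 of the 35 genes, *Herpud1*, and in 0.0365% of all windows. The UPRE core TGACGTG was in *Hspa5* alone of the 35 genes, and in 2.01% of all windows. The amino acid response element, to which ATF4 and C/EBP proteins are known to bind, was searched as TGATG, any base, then AA, and was in 6 of the 35 genes (17.1%) and in 3.97% of all windows. Those genes were *Trib3*, *Asns*, *Chac1* and *Vldlr* of the ATF4 branch, and *Herpud1* and *Cnpy2*. The elements of *Herpud1*, *Asns* and *Chac1* are printed in the same way, the last 2 as examples of the amino acid element:
*Herpud1*, ERSE-II, chr8:94386362-94386402, + strand, 46 before: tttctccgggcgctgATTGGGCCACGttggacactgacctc
*Asns*, chr6:7693210-7693247, - strand, 19 before: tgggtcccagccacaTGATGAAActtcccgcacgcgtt
*Chac1*, chr2:119351034-119351071, - strand, 189 before: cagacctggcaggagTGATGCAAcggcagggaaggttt

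The first comparison is that of 12 h with 4 h of culture, and serine synthesis genes of the ATF4 branch were among those that fell. Averaged over both treatments, 8 of the 39 genes (20.5%) passed the test, 4 higher and 4 lower at 12 h. All but *Dnajb9* of these are ATF4 branch genes. The serine synthesis genes *Phgdh* and *Psat1*, the serine hydroxymethyltransferase gene *Shmt2* and the amino acid transporter gene *Slc7a5* fell. *Mthfd2*, the mitochondrial folate enzyme, the stress transcription factor gene *Ddit3*, the growth arrest gene *Gadd45a* and the ER co-chaperone gene *Dnajb9* rose. The test was limma on log2 signals with a Benjamini-Hochberg adjusted p under 0.05 over 45037 probe sets, of which 6.84% passed in this comparison. By direction 3.65% were higher and 3.18% lower. Among the 10929 genes that exceeded the reference on 4 or more arrays, 15.6% passed. At an unadjusted p under 0.05 there were 15 of the 39 genes, beside 17.9% of probe sets and 3591 of those 10929 genes. Bulk RNA cannot tell fewer cells of a type from less RNA per cell. Precision is limited by having only 2 arrays in each group.

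*Phgdh*, the first enzyme of serine synthesis, had the smallest p of the 39 genes. Its signal was 529 and 479 on the vehicle and 504 and 449 on the [BF/S+L/Ep] arrays at 4 h, and 159 and 132 on the vehicle against 289 and 226 on the [BF/S+L/Ep] arrays at 12 h. The 4 arrays at 4 h lay close together and above all 4 at 12 h, and both vehicle arrays at 12 h lay under both [BF/S+L/Ep] arrays of that time. From 4 h to 12 h *Phgdh* fell by 1.80 on the log2 scale in the vehicle (SE 0.22, adjusted p = 7.35e-04), 3.48-fold. With [BF/S+L/Ep] the difference was -0.90 (SE 0.22, adjusted p = 0.0502), and the average of both was -1.35 (SE 0.16, adjusted p = 1.57e-04). *Phgdh* has 4 probe sets, all of a kind (x_at) that can also bind related transcripts. The other probe sets of *Phgdh* gave average time differences of -0.40, -0.90 and -0.27, with adjusted p of 0.312, 0.113 and 0.778. With the mean of all its probe sets the fall in the vehicle was 0.66 and did not pass (adjusted p = 0.262).

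The next steps of serine and one-carbon metabolism did not all move one way. *Psat1*, which follows *Phgdh* in serine synthesis, had signals of 454 and 484 in the vehicle and 477 and 578 on the [BF/S+L/Ep] arrays at 4 h, against 352 and 326 and then 334 and 329 at 12 h. *Shmt2*, which passes a carbon from serine to folate in mitochondria, had 768 and 756, then 689 and 726 at 4 h, against 585 and 506, then 470.3 and 531 at 12 h. In both genes every array at 4 h was above every array at 12 h. *Psat1* fell by 0.57 on average (SE 0.13, adjusted p = 0.0172), with -0.47 in the vehicle and -0.66 with [BF/S+L/Ep], and *Shmt2* fell by 0.49 (SE 0.11, adjusted p = 0.0137), with -0.49 and -0.50. The second probe set of *Psat1* fell too, by 0.70 (adjusted p = 0.00716). The brightest probe set of *Shmt2* is of the x_at kind, as are those of *Phgdh*. The other 3 of *Shmt2* are dimmer and gave -0.29, -0.07 and -0.59, none of which passed (adjusted p 0.578, 0.947 and 0.633).

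*Mthfd2*, which takes the carbon from *Shmt2* a step further, went the other way. Its signals were 1769.9 and 1561 in the vehicle and 1591 and 1869 on the [BF/S+L/Ep] arrays at 4 h, and 2275 and 2694, then 2705 and 3423 at 12 h. Every array at 12 h was above every array at 4 h, and the highest values were those of [BF/S+L/Ep] at 12 h. *Mthfd2* rose by 0.70 on average (SE 0.10, adjusted p = 8.39e-04), 1.62-fold. The rise was 0.82 with [BF/S+L/Ep] (SE 0.14, adjusted p = 0.00692), and the difference in the vehicle was 0.57 (SE 0.14, adjusted p = 0.0611). A second probe set of *Mthfd2* rose by 0.60 on average (adjusted p = 8.30e-04).

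In the vehicle alone, *Phgdh* was the 1 gene of 39 that passed over time, where 2.10% of all probe sets did, and with [BF/S+L/Ep] alone *Mthfd2* was the 1 gene, where 2.86% did. At an unadjusted p under 0.05 there were 15 genes in the vehicle and 11 with [BF/S+L/Ep], beside 12.4% and 13.8% of all probe sets. Nearly all of the 39 genes were above the reference, unlike many probe sets. Among the 10929 genes that exceeded it on 4 or more arrays, 5.53% passed in the vehicle and 7.07% with [BF/S+L/Ep]. At an unadjusted p under 0.05 there were 2356 and 2684 of those 10929 genes. Among other probe sets of the 39 genes, the second of *Psat1* (-0.84, adjusted p = 0.0435) and of *Mthfd2* (0.59, adjusted p = 0.0258) passed in the vehicle, and that of *Mthfd2* with [BF/S+L/Ep] (0.62, adjusted p = 0.0157). The calls in the vehicle were lost without either of its replicates at 4 h, with adjusted p of 0.204 and 0.250 for *Psat1* and 0.126 and 0.231 for *Mthfd2*. They were also lost without its replicate 2 at 12 h (0.196 and 0.223), and that of *Psat1* without its replicate 1 there (0.160) or without replicate 1 (0.0564) or 2 (0.0543) of [BF/S+L/Ep] at 12 h. That *Phgdh* passed in one treatment and *Mthfd2* in the other does not show that the time courses differed. The test of that difference gave 0.90 for *Phgdh* (SE 0.31) and 0.24 for *Mthfd2* (SE 0.20), both with an adjusted p of 1.0.

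The transporter genes of the branch import amino acids. *Slc7a5* encodes the light chain of LAT1, the carrier of large neutral amino acids, and had signals of 177 and 125, then 121 and 135 at 4 h. At 12 h its signals were 11.1 and 18.9 in the vehicle and 48.4 and 8.9 with [BF/S+L/Ep], all 4 under the background reference. It was at least 1.72-fold lower at 12 h, the 4 h mean being set against the reference, and the adjusted p of the average was 0.00916. *Slc3a2*, the heavy chain that LAT1 needs, had 4358 and 3449, then 4229 and 4757 at 4 h, and 4116 and 4715, then 4494 and 5406 at 12 h. These ranges overlapped, and the average difference of *Slc3a2* was 0.16 (95% interval -0.05 to 0.37, adjusted p = 0.436). *Slc7a1*, a cationic amino acid transporter gene, lay between 377 and 634 and differed by -0.41 (adjusted p = 0.103).

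*Ddit3* (CHOP), the transcription factor gene that ATF4 is known to induce, gave 448 and 493, then 499 and 396 at 4 h, and 660.0 and 641, then 557 and 658 at 12 h. All 12 h arrays were above all 4 h arrays, and *Ddit3* rose by 0.46 (SE 0.12, adjusted p = 0.0412). *Gadd45a*, a growth arrest and DNA damage gene that ATF4 among other factors can induce, gave 1199 and 936, then 1003 and 904 at 4 h, and 1348 and 1724, then 1295 and 1437 at 12 h. *Gadd45a* rose by 0.52 (SE 0.11, adjusted p = 0.0116), 1.44-fold. *Ppp1r15a*, the phosphatase subunit GADD34 that reverses the phosphorylation of eIF2α, gave 1517 and 1002, then 1431 and 1455 at 4 h, and 1435 and 1975, then 1528 and 1837 at 12 h. The 2 vehicle arrays of *Ppp1r15a* at 4 h stood far apart, and its difference was 0.33 (95% interval 0.04 to 0.63, adjusted p = 0.202).

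The upstream genes of the branch did not pass. *Eif2ak3* gave 1131 and 1095, then 1036 and 1204 at 4 h, and 946 and 1009.8, then 1123 and 1115 at 12 h. *Atf4* gave 2848 and 2984, then 3118 and 3048 at 4 h, and 3101 and 3323, then 3668 and 3649 at 12 h. The average time difference was -0.09 for *Eif2ak3* (95% interval -0.29 to 0.10, adjusted p = 0.674) and 0.19 for *Atf4* (0.04 to 0.34, adjusted p = 0.141). Of the other targets, *Asns* (asparagine synthetase) lay between 166 and 362 and the stress sensor gene *Sesn2* between 846 and 1014. Every 12 h array of *Asns* was under every 4 h array, with a difference of -0.56 (SE 0.19, adjusted p = 0.122), and *Sesn2* differed by -0.01 (95% interval -0.22 to 0.19). *Trib3*, a pseudokinase gene that restrains ATF4, was between 108 and 138 at 4 h and between 51.8 and 92.3 at 12 h, where both [BF/S+L/Ep] arrays were under the reference. *Chac1*, which degrades glutathione, lay between 45.8 and 137 and under the reference on 4 of the 8 arrays, and in the vehicle it was at least 1.18-fold lower at 12 h (adjusted p = 0.844).

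**Figure D1:**
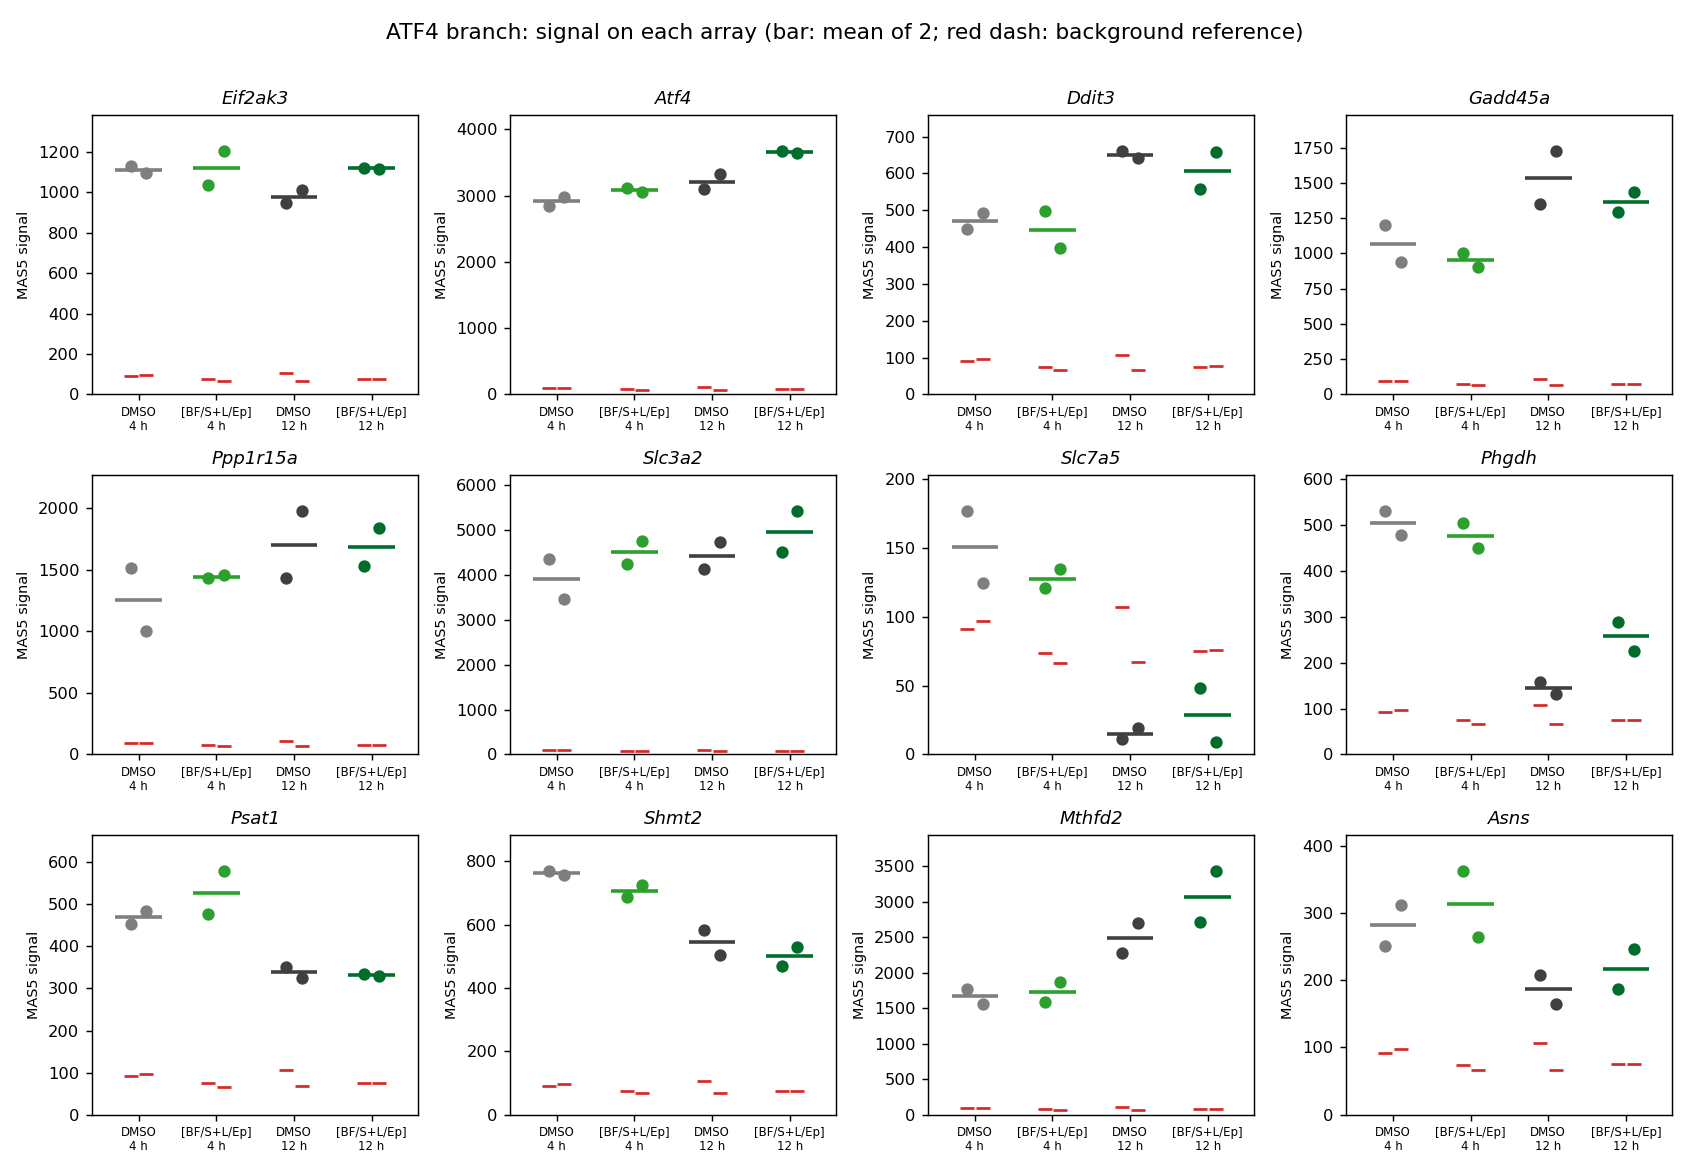
MAS5 signals (vertical axes, linear, from 0) of 12 ATF4 branch genes by group (horizontal axes, each treatment at each time). Points are the 2 arrays of a group, bars their mean and red dashes the background reference of each array. *Phgdh*, *Psat1* and *Shmt2* are lower and *Mthfd2*, *Ddit3* and *Gadd45a* higher on all 4 arrays at 12 h, and *Slc7a5* lies under the reference there.

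Not all of these calls held without each array. *Phgdh* and *Mthfd2* passed on average without any 1 of the 8 arrays, with adjusted p of 5.46e-04 to 0.00258 and 0.00125 to 0.0108. *Slc7a5* was lost without vehicle 4 h replicate 1 (adjusted p = 0.0586). *Gadd45a* was lost without vehicle 4 h replicate 2 (0.0759), replicate 2 of the vehicle at 12 h (0.0595) or of [BF/S+L/Ep] at 12 h (0.0519). *Shmt2* was lost without vehicle 4 h replicate 1 (0.0573) or 2 (0.0593), vehicle 12 h replicate 2 (0.0542) or [BF/S+L/Ep] 12 h replicate 1 (0.0605). *Psat1* kept its call only without replicate 1 of [BF/S+L/Ep] at 4 h (0.0242) or of the vehicle at 12 h (0.0436), with up to 0.0799 otherwise, and *Ddit3* only without replicate 1 of [BF/S+L/Ep] at 4 h (0.0341), with up to 0.151 otherwise. *Dnajb9* was lost whichever 1 array was left out (0.0552 to 0.177). The rise of *Mthfd2* with [BF/S+L/Ep] was lost when replicate 1 of [BF/S+L/Ep] at 4 h (0.0766) or its replicate 2 at 12 h (0.0861) was left out, while the fall of *Phgdh* in the vehicle passed without any 1 array (0.00106 to 0.0209).

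Of the 8 genes of the XBP1 branch, 1 passed on average, and of the 14 genes of the ATF6 branch 0 passed in limma, also 0 at an unadjusted p under 0.05, each gene being read from its brightest probe set. The median time difference was -0.01 over the 13 ATF4 branch genes above the reference on all 8 arrays (-0.41 over all 17, of which 4 have only a bound or no fold), 0.04 over the XBP1 branch and -0.02 over the ATF6 branch, beside 0.03 over all probe sets and -0.03 over the genes that exceeded the reference on 4 or more arrays. *Dnajb9*, the ER co-chaperone ERdj4 and a known target of spliced XBP1, gave 3516 and 4032, then 3633 and 3587 at 4 h, and 4652 and 4559.7, then 4329 and 4271 at 12 h. All its 12 h arrays were above all 4 h arrays, and *Dnajb9* rose by 0.27 (SE 0.07, adjusted p = 0.0385), 1.21-fold.

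*Ern1* gave 1959.9 and 1845, then 1802 and 1691 at 4 h, and 2277 and 2211, then 2046 and 1979 at 12 h. Every 12 h array of *Ern1* was above every 4 h array, by 0.22 on average (95% interval 0.06 to 0.38), which did not pass (adjusted p = 0.111). *Xbp1* gave 8108 and 7093, then 6839 and 8074 at 4 h, and 5129.9 and 5983, then 5966 and 7426 at 12 h, for a difference of -0.31 (SE 0.09, adjusted p = 0.0795). Both vehicle arrays of *Xbp1* at 12 h lay under those at 4 h, while the [BF/S+L/Ep] arrays overlapped. The other probe sets of *Xbp1*, all above the reference on 8 arrays, gave -0.10, 0.02 and 0.01 on average. *Atf6* gave 586 and 690.0, then 672 and 593 at 4 h, and 613 and 583, then 592 and 527 at 12 h, and differed by -0.13 (95% interval -0.38 to 0.11). The brightest probe set of *Hspa5* (BiP) differed by 0.10 (95% interval -0.09 to 0.29), but a second one, with 6091 and 5816, then 6490.4 and 6751 at 4 h, and 7211 and 7418, then 7268 and 8073 at 12 h, was higher on every array at 12 h. That probe set of *Hspa5* rose by 0.25 (SE 0.07, adjusted p = 0.0458), a call kept only without replicate 2 of [BF/S+L/Ep] at 4 h (0.0493) and lost when any other single array was left out (0.0691 to 0.186), with a block for the replicate number (0.0602) and with each array centred on its median (0.432). The remaining probe set of *Hspa5* gave 0.02. The remaining XBP1 branch genes, the co-chaperone *Dnajc3*, the mannosidase-like *Edem1*, the translocon subunit *Sec61b*, the ubiquitin ligase *Syvn1* and the disulfide isomerase *Pdia6*, had average time differences between -0.13 and 0.06.

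A separate count of genes whose arrays did not overlap gave 24 of 38 genes over time in the vehicle, 7 higher and 17 lower, where 51.4% of probe sets did not overlap (27.4% higher and 24.0% lower). With [BF/S+L/Ep] it gave 23 of 37, 15 higher and 8 lower, beside 51.8% (27.2% higher and 24.7% lower). With each array centred on its median, the counts were 3 higher and 18 lower in the vehicle, and 14 higher and 8 lower with [BF/S+L/Ep]. The shares of all probe sets on that scale are not given here, so the centred counts have nothing to be set beside. In both treatments *Phgdh*, *Psat1*, *Shmt2*, *Slc7a5*, *Slc7a1*, *Asns* and *Trib3* were lower and *Atf4*, *Ddit3*, *Gadd45a*, *Mthfd2*, *Ern1* and *Dnajb9* higher at 12 h. Of the ATF6 branch, 6 of 14 genes, *Calr*, *Canx*, *Creld2*, *Hyou1*, *Pdia3* and *Sdf2l1*, were lower at 12 h in the vehicle, and *Sel1l* was higher. With [BF/S+L/Ep], *Calr*, *Creld2*, *Herpud1*, *Hsp90b1*, *Hspa5* and *Hyou1* were higher at 12 h and *Atf6* lower.

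Other measures moved with time as well. The summed signal of the 5 macrophage markers was 20191 to 25713 at 4 h and 31262 to 37674 at 12 h, and 4 of the 5, *Adgre1*, *Cd14*, *C1qa* and *Mertk*, rose on average. The remaining marker, *Fcgr1*, was lower on every array at 12 h, with an average difference of -0.29 (adjusted p = 0.0547). *Cd14* made up the largest part of the sum. The plasma cell marker *Sdc1*, which macrophages also carry, rose by 0.59 (adjusted p = 0.00137), while *Jchain*, *Cd79a*, *Cd79b* and *Ms4a1* were under the reference on all 8 arrays. The summed signal of the dendritic cell markers was 220293 to 237778 at 4 h and 207576 to 222700 at 12 h, and 3 of the 12 passed, *Itgax* lower and *Zbtb46* and *Batf3* higher. The 3' to 5' ratio of *Gapdh*, a measure of RNA integrity, was 0.702 to 0.756 at 4 h and 0.652 to 0.685 at 12 h. The same ratio of *Actb* overlapped between the times, with 1.21 to 1.26 at 4 h and 1.18 to 1.24 at 12 h. The part of these measures in the time results was not tested.

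**Figure D2:**
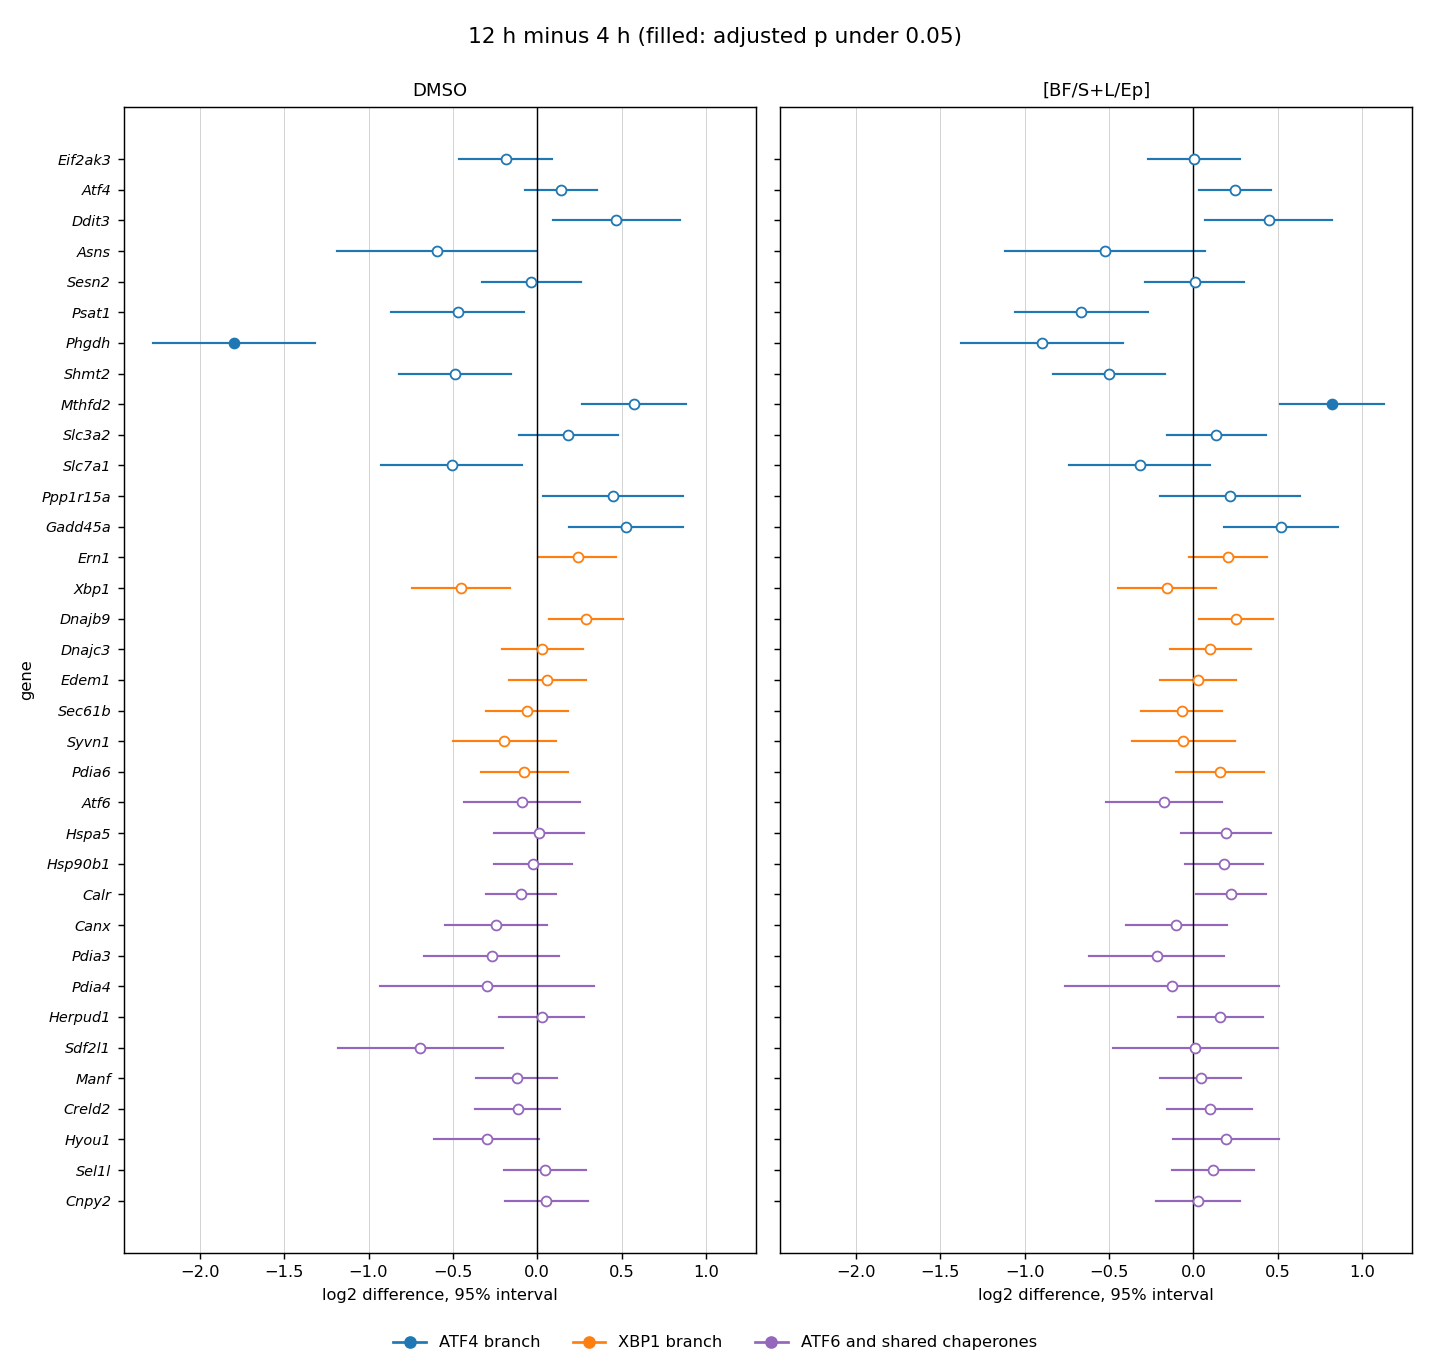
Log2 difference of 12 h minus 4 h (horizontal axes) in vehicle-treated (left) and [BF/S+L/Ep]-treated DCs (right) for 35 of the 39 genes (vertical axis), coloured by branch. Lines are 95% intervals, and *Vldlr*, *Slc7a5*, *Trib3* and *Chac1*, with groups under the background reference, are left out. The filled points, which passed the test, are *Phgdh* in the vehicle and *Mthfd2* with [BF/S+L/Ep].

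The second comparison is the one the study was built on, [BF/S+L/Ep] against the vehicle at the same time. At 4 h no gene of the 39 passed in limma (0 genes), and 0 had an unadjusted p under 0.05, where 0.00444% of all probe sets passed and 4.97% had such a p. The differences lay around 0, with a median of 0.00 over the 39 genes (0.05 in the ATF4 branch, -0.01 in the XBP1 branch and -0.03 in the ATF6 branch), beside -0.02 over all probe sets. Among the 38 genes that could be counted, the arrays did not overlap in 7 (18.4%), beside 33.7% of probe sets (17.5% higher and 16.2% lower). *Atf4*, *Pdia6* and *Creld2* were higher and *Shmt2*, *Ern1*, *Hsp90b1* and *Calr* lower. The split was 6 higher and 2 lower with each array centred on its median, a scale for which the share of all probe sets is not given here.

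The sensors and transcription factors can be read from the signals above. The difference at 4 h was 0.00 for *Eif2ak3* (95% interval -0.27 to 0.28), -0.12 for *Ern1* (-0.35 to 0.11) and -0.01 for *Atf6* (-0.35 to 0.33). It was 0.08 for *Atf4* (-0.13 to 0.29), -0.08 for *Ddit3* (-0.46 to 0.30) and -0.03 for *Xbp1* (-0.32 to 0.26). For *Eif2ak3* that interval spans ratios of 0.83 to 1.21, so that responses within it were not detectable with these arrays. Other probe sets did not all give the same sign. Those above the reference on all 8 arrays gave -0.15 for *Atf4*, -0.11 for *Ern1*, 0.21 and -0.69 for *Atf6*, and 0.04, -0.03 and 0.16 for *Xbp1*. A dim one of *Ddit3*, above the reference on 7 arrays, gave 2.02 (adjusted p = 0.997), so that its direction is not settled. The smallest p at 4 h was that of *Creld2*, a disulfide isomerase-like ER protein, with a difference of 0.21 (SE 0.12, adjusted p = 0.997). *Slc3a2* (0.21, SE 0.14), *Hsp90b1* (-0.15, SE 0.11), *Ppp1r15a* (0.23, SE 0.19) and *Ern1* followed, with adjusted p of 0.997 to 1.0. The sign of *Ppp1r15a* rested on 1 array, since without vehicle 4 h replicate 2 the difference was -0.072, and that of *Hsp90b1* was 0.078 with the mean of its 2 probe sets.

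At 12 h again 0 of the 39 genes passed in limma between [BF/S+L/Ep] and vehicle, where 0.0200% of all probe sets did. At an unadjusted p under 0.05 there were 5 genes (beside 5.96% of probe sets, 2.62% higher), all higher: *Hyou1*, *Phgdh*, *Creld2*, *Pdia6* and *Calr*. Of the 10929 genes that exceeded the reference on 4 or more arrays, 852 had such a p, 383 of them higher. *Hyou1*, *Creld2*, *Pdia6* and *Calr* encode ER chaperone or folding proteins, as do *Hsp90b1*, *Canx*, *Pdia3* and *Pdia4*, whose arrays overlapped. Of the 39 genes, 26 had a positive difference and 13 a negative one. Among the 35 above the reference on all 8 arrays it was 24 and 11. Positive differences were found in 21152 of the 45037 probe sets, and in 5006 of the 10929 genes that exceeded the reference on 4 or more arrays. The median was 0.11 over the 39 genes, beside -0.03 over all probe sets, and 0.16, 0.01 and 0.15 in the ATF4, XBP1 and ATF6 branches. The arrays did not overlap in 13 of 35 genes (37.1%), beside 37.8% of probe sets. Of these, 11 (31.4%) were higher, beside 18.5%, and 2 (5.71%) lower, beside 19.3%. The 11 were *Eif2ak3*, *Atf4*, *Phgdh*, *Mthfd2*, *Slc7a1*, *Dnajc3*, *Pdia6*, *Hspa5*, *Calr*, *Creld2* and *Hyou1*, and the 2 were *Ern1* and *Dnajb9*. The split was 14 higher and 4 lower after quantile normalization, and 12 higher and 0 lower with each array centred on its median. The shares of all probe sets on those 2 scales are not given here, so these splits do not describe the 39 genes apart from other genes. The summed signal of the 5 macrophage markers was 31262 to 31961 in the vehicle and 34548 to 37674 with [BF/S+L/Ep] at 12 h, with 0 of the 5 passing. *Cd14* made up most of the sum, and the markers did not all move one way. Their differences were 0.29 for *Adgre1*, 0.25 for *Cd14*, 0.11 for *C1qa*, -0.01 for *Fcgr1* and -0.43 for *Mertk*. The part of these markers in the differences of the 39 genes was not tested.

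Of the chaperones, *Hspa5* (BiP), the main ER chaperone and the one that holds the sensors inactive, gave 13172 and 12565 on the vehicle against 13978 and 12523 on the [BF/S+L/Ep] arrays at 4 h, and 11403 and 14665 against 14784 and 15413 at 12 h. Both [BF/S+L/Ep] arrays at 12 h were the highest of the 8, one of them just above the higher vehicle array. The difference of *Hspa5* at 12 h was 0.22 (95% interval -0.04 to 0.49, adjusted p = 0.887), and that at 4 h was 0.04 (-0.23 to 0.31). Its other 2 probe sets, both above the reference on all 8 arrays, gave 0.067 and 0.073 at 12 h.

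*Hyou1*, an ER member of the heat shock protein family that helps BiP release nucleotide, gave 1262 and 1686, then 1422 and 1601 at 4 h, and 1121 and 1253 in the vehicle against 1749 and 1699 with [BF/S+L/Ep] at 12 h. At 12 h *Hyou1* was 1.46-fold higher (0.54, SE 0.14, adjusted p = 0.494). A second probe set of *Hyou1*, above the reference on all 8 arrays, gave 0.27, and the dimmest, above it on 1 array, -0.42. The vehicle arrays at 12 h were the 2 lowest of the 8, and the [BF/S+L/Ep] arrays the 2 highest. *Creld2* gave 1153 and 1105 in the vehicle against 1308 and 1299 on the [BF/S+L/Ep] arrays at 4 h, and 1082 and 1002 against 1379.6 and 1407 at 12 h. All 4 [BF/S+L/Ep] arrays of *Creld2* were above all 4 vehicle arrays, and at 12 h it was 1.34-fold higher (0.42, SE 0.12, adjusted p = 0.516).

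*Pdia6*, a protein disulfide isomerase, gave 2653 and 2293 against 2663 and 2766 at 4 h, and 2131 and 2568 against 2974 and 3078 at 12 h. The arrays of *Pdia6* also separated at both times, and the difference at 12 h was 0.37 (SE 0.12, adjusted p = 0.669). *Calr* (calreticulin), a lectin chaperone, gave 12809.9 and 13591 against 12183 and 12324 at 4 h, and 12375 and 12301 against 14419 and 14182 at 12 h. *Calr* was thus lower with [BF/S+L/Ep] on both arrays at 4 h and higher on both at 12 h, with differences of -0.11 (SE 0.10) and 0.21 (SE 0.10, adjusted p = 0.832). Its other probe sets were higher at both times, by 0.09 and 0.15 at 4 h and by 0.17 and 0.20 at 12 h. *Hsp90b1* (GRP94), the ER member of the HSP90 family, gave 10577 and 12012 against 10185 and 10158 at 4 h, and 11856 and 10367 against 11716 and 11361 at 12 h, where the ranges overlapped. The second probe set of *Hsp90b1* gave differences of 0.30 at 4 h and 0.34 at 12 h, neither of which passed.

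*Sdf2l1*, a subunit of the BiP complex, gave 2134 and 1818 against 1319.9 and 2074 at 4 h, and 1092 and 1361 against 1324 and 2098 at 12 h, with arrays of [BF/S+L/Ep] far apart at each time. Its difference at 12 h was 0.45 (95% interval -0.04 to 0.94). The remaining ATF6 branch genes, the lectin chaperone *Canx*, the disulfide isomerases *Pdia3* and *Pdia4*, the degradation factors *Herpud1* and *Sel1l*, the secreted factor *Manf* and the saposin-like *Cnpy2*, had differences at 12 h between -0.14 and 0.18, and their arrays overlapped between treatments, as read from the brightest probe set of each. At other probe sets above the reference on all 8 arrays, *Canx* gave 0.35 and 0.02 at 12 h and *Herpud1* 0.32. Those of *Sel1l* gave 0.29, 0.26, 0.26 and 0.18 and one of *Cnpy2* -0.13, and none of these passed. *Cnpy2* has another probe set, of the x_at kind like its brightest one and above the reference on all 8 arrays, that was lower with [BF/S+L/Ep]. It gave 1318 and 1507 in the vehicle against 1061 and 821 on the [BF/S+L/Ep] arrays at 4 h, and 1693 and 2112 against 1072 and 960.1 at 12 h, without overlap at either time. The differences of this probe set of *Cnpy2* were -0.59 at 4 h (adjusted p = 0.861) and -0.90 at 12 h (adjusted p = 0.113).

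**Figure D3:**
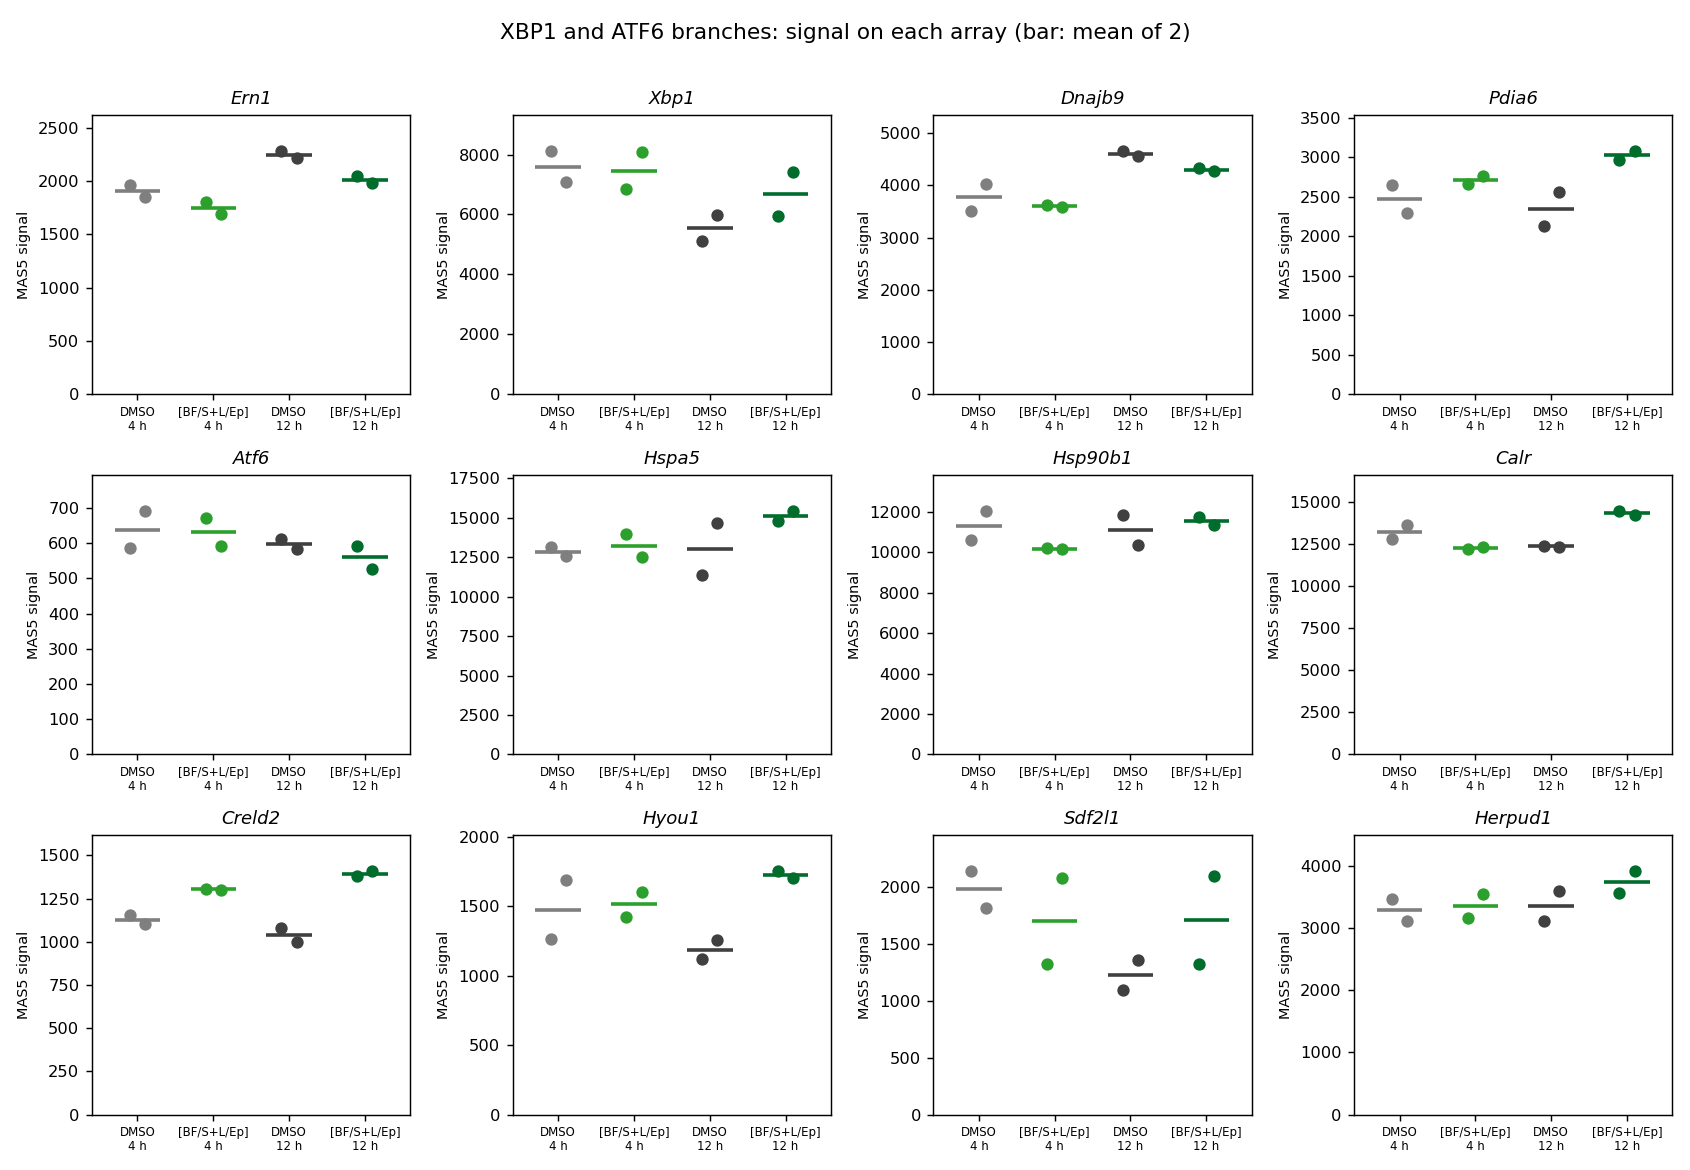
MAS5 signals (vertical axes, linear, from 0) of 12 genes of the XBP1 and ATF6 branches by group (horizontal axes, each treatment at each time). Points are the 2 arrays of a group and bars their mean. *Creld2* and *Pdia6* are higher with [BF/S+L/Ep] at both times, and *Hspa5*, *Hyou1* and *Calr* at 12 h, none of which passed the test.

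The ER stress elements printed above can be read beside these values. Of the 8 genes that carry one, 5 (*Hspa5*, *Calr*, *Pdia6*, *Dnajc3* and *Creld2*) had both [BF/S+L/Ep] arrays above both vehicle arrays at 12 h, and 0 had both below, where 18.5% of all probe sets were higher and 19.3% lower. At 4 h 2 of the 8 were higher and 2 lower, where it was 17.5% and 16.2%. Only 4 other genes with the element could be counted at 12 h, of which 0 were higher and 1 was lower, so that the element as such cannot be described beyond the 8 genes. The ratios at 12 h were modest, between 1.06 for *Dnajc3* and 1.34 for *Creld2* among the 5, and none passed the test.

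In the ATF4 branch the 12 h differences were 0.20 for *Eif2ak3* (95% interval -0.08 to 0.47), 0.19 for *Atf4* (-0.02 to 0.40) and -0.10 for *Ddit3* (-0.48 to 0.27). *Atf4* has a second probe set above the reference, which gave -0.29 (adjusted p = 0.895), so that its direction is not settled. The dim second probe set of *Ddit3*, above the reference on 7 arrays, gave 0.27. *Mthfd2* differed by 0.30 (-0.01 to 0.61) and by 0.01 at its second probe set. *Phgdh* was 1.76-fold higher with [BF/S+L/Ep] at 12 h (0.82, SE 0.22, adjusted p = 0.505), against a vehicle level that had fallen as described. The other probe sets of *Phgdh* gave 0.53, -0.81 and -0.94 at 12 h and disagree in sign. With the mean of its probe sets the difference was -0.10.

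*Xbp1* differed by 0.26 at 12 h (95% interval -0.02 to 0.55, adjusted p = 0.858), and its other probe sets gave 0.33, 0.17 and -0.28. *Ern1* differed by -0.16 (-0.39 to 0.07) and *Atf6* by -0.10 (-0.44 to 0.25). Of the XBP1 targets, *Pdia6* differed by 0.37, as given above, and *Dnajb9*, *Edem1*, *Sec61b*, *Dnajc3* and *Syvn1* by -0.10 to 0.08. Targets of the ATF6 branch differed by -0.14 to 0.54.

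**Figure D4:**
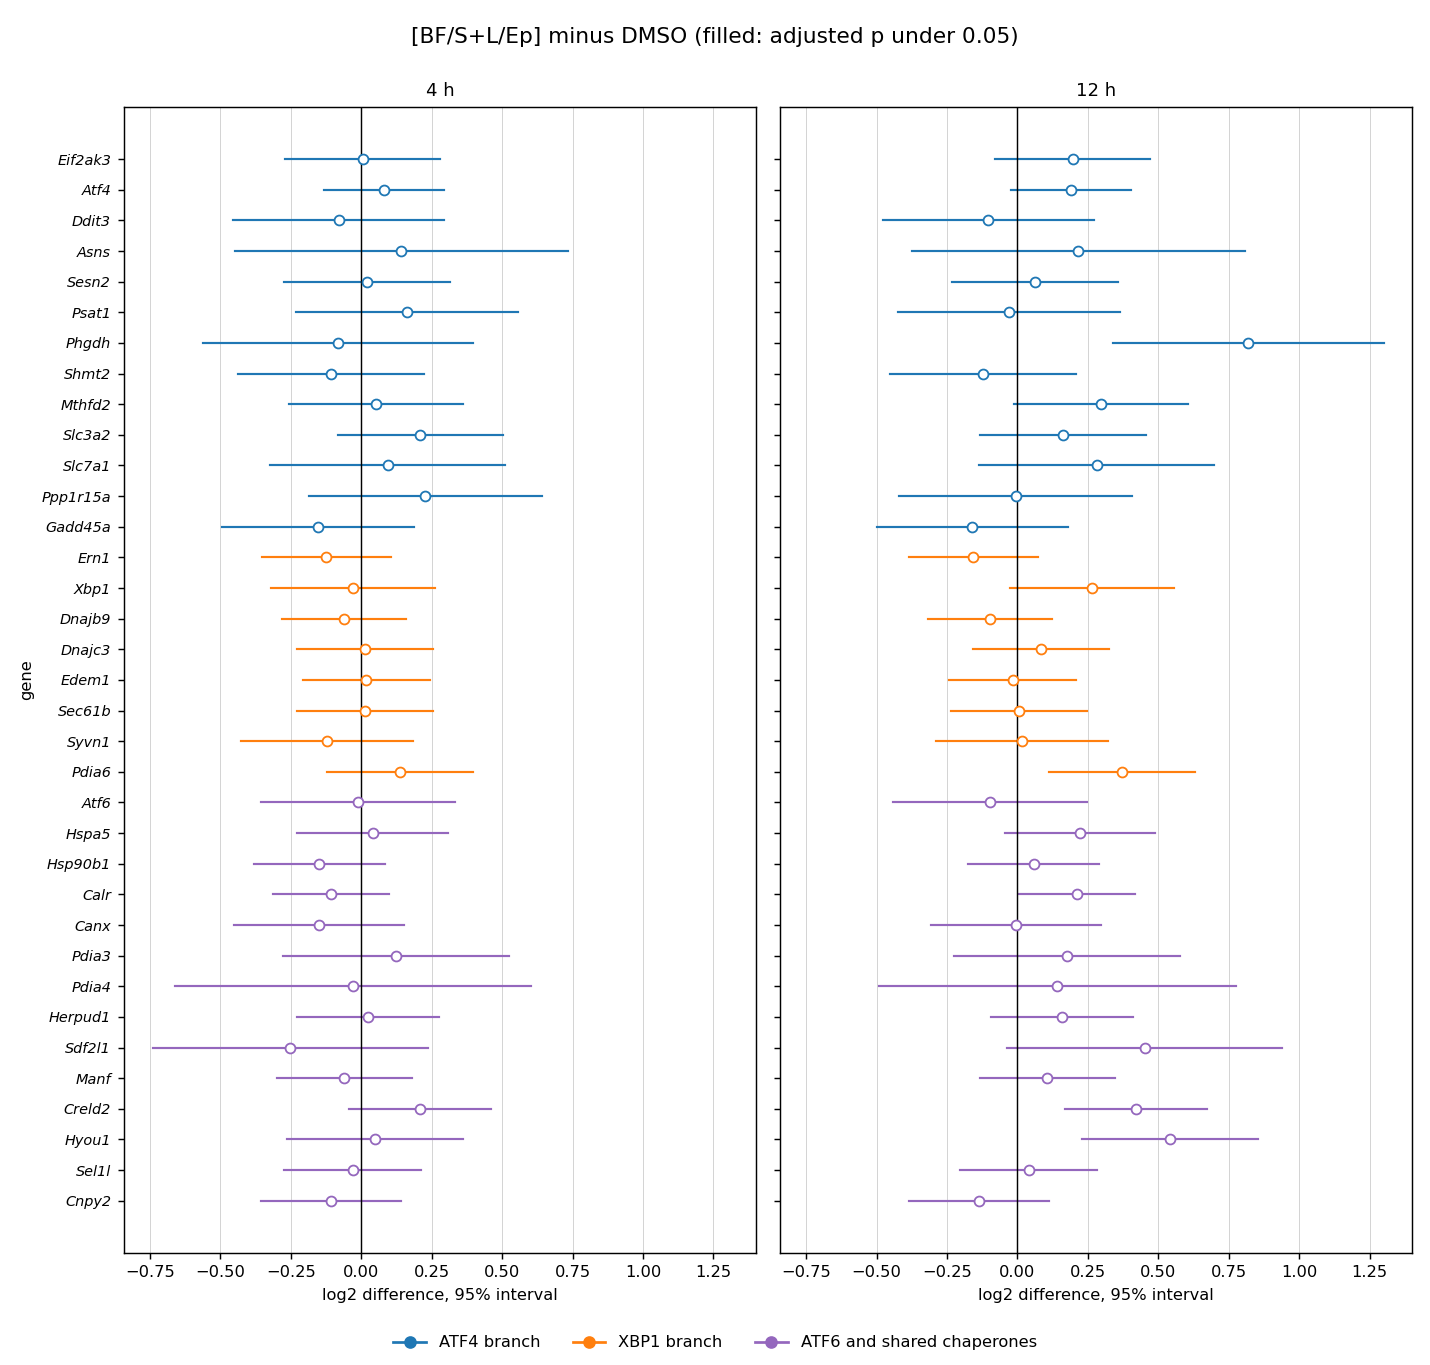
Log2 difference of [BF/S+L/Ep] minus vehicle (horizontal axes) at 4 h (left) and 12 h (right) for 35 of the 39 genes (vertical axis), coloured by branch. Lines are 95% intervals, and *Vldlr*, *Slc7a5*, *Trib3* and *Chac1*, with groups under the background reference, are left out. No point is filled, since 0 genes passed the test, and the intervals of *Phgdh*, *Pdia6*, *Calr*, *Creld2* and *Hyou1* lie above 0 at 12 h.

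Averaged over both times, 0 genes passed in limma at their brightest probe set, where 0.107% of all probe sets did, and 4 had an unadjusted p under 0.05, beside 7.08% of probe sets. They were *Creld2* (0.31, SE 0.08, adjusted p = 0.332), *Pdia6* (0.25, SE 0.08, adjusted p = 0.542), *Hyou1* (0.29, SE 0.10, adjusted p = 0.561) and *Phgdh* (0.37, SE 0.16, adjusted p = 0.678). Of the 10929 genes that exceeded the reference on 4 or more arrays, 1060 had such an unadjusted p. *Creld2* and *Pdia6* were the 2 of 35 genes (5.71%) with all 4 [BF/S+L/Ep] arrays above all 4 vehicle arrays, beside 1.60% of probe sets. No gene (0 of 35) had all 4 below. With each time read by itself, *Atf4* was also higher without overlap at both times, and *Ern1* was lower at both. One of the 97 probe sets of the 39 genes did pass on average, the dimmer x_at probe set of *Cnpy2* described above, which fell by 0.75 (SE 0.11, adjusted p = 0.0183). That call was kept without replicate 1 of [BF/S+L/Ep] at 4 h (0.0212), lost when any other single array was left out (0.0675 to 0.226), and lost with each array centred on its median (0.124) or without the intensity trend (0.530). The other probe sets of *Cnpy2* above the reference on all 8 arrays gave -0.12 and -0.01 on average. The test of whether the response differed between 12 h and 4 h passed for 0 genes, and for 0 probe sets in all, with 4 genes at an unadjusted p under 0.05, beside 3.66% of probe sets. Those genes were *Phgdh* (0.90, SE 0.31), *Hyou1* (0.49, SE 0.20), *Calr* (0.32, SE 0.13) and *Sdf2l1* (0.70, SE 0.32), each with an adjusted p of 1.0. That of *Hyou1* was -0.00178 with the mean of its 3 probe sets. The treatment and the time contrasts use the same arrays and are not independent of each other.

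The other genes of the pathway were read from 5 lists, of which 104 of 115 symbols have a probe set. None of the 104 passed between [BF/S+L/Ep] and vehicle in limma (0 at 4 h, at 12 h and on average), with 4, 7 and 9 (3.85%, 6.73% and 8.65%) at an unadjusted p under 0.05, beside 4.97%, 5.96% and 7.08% of all probe sets. Those with the smallest p at 12 h were *Ddit4*, a stress-induced inhibitor of mTORC1 (0.63, adjusted p = 0.339), *Rpn1*, an oligosaccharyltransferase subunit (0.45, adjusted p = 0.362), the tyrosyl-tRNA synthetase gene *Yars* (0.78, adjusted p = 0.573) and *Eif4ebp1*, a translation repressor (-0.33, adjusted p = 0.732). At 4 h they were the transcription factor genes *Cebpb* (0.29) and *Nfe2l2* (0.24), the disulfide isomerase *Pdia5* (1.12) and the glycine transporter *Slc6a9* (-0.94), with adjusted p of 0.988 to 0.997. On average they were *Rpn1* (0.33, adjusted p = 0.211), *Ddit4* (0.43, adjusted p = 0.249), *Cebpb* (0.27) and *Eif4ebp1* (-0.29).

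Over time, 19 of the 104 genes (18.3%) passed on average, 4 higher and 15 lower at 12 h, beside 6.84% of all probe sets and 15.6% of the genes that exceeded the reference on 4 or more arrays. By list it was 3 higher and 7 lower of 39 amino acid and integrated stress genes, 0 and 4 of 20 translocation genes, 0 and 3 of 18 folding genes, 0 and 0 of 15 degradation genes, and 1 and 1 of 12 sensor and cleavage genes. *Nupr1*, a stress transcription regulator and ATF4 target, rose by 1.56 (SE 0.14, adjusted p = 1.72e-05). *Fkbp2*, an ER prolyl isomerase, fell by 0.68 (adjusted p = 1.35e-04), *Eif4ebp1* fell by 0.64 (adjusted p = 3.65e-04) and *Aldh18a1*, the first enzyme of proline synthesis, fell by 0.74 (adjusted p = 4.92e-04). The median time difference over the 104 genes was -0.13.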

How the data were processed

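RNA of 8 samples of mouse BMDCs was measured on Affymetrix 430 2.0 arrays. The deposited intensity values are MAS5 signals made by the authors, scaled to a trimmed mean of 500 on each array. The version of MAS5 was not given in the sources used here, and detection calls were not used. On the log2 scale, limma 3.58.1 (in R 4.3.3, with statmod 1.5.0) estimated a mean for each of the 4 groups, with an intensity trend (4 residual and 8.83 prior degrees of freedom). The p-values are two-sided and were adjusted by Benjamini-Hochberg across 45037 probe sets, without the 64 controls. Symbols came from the platform annotation: 34945 probe sets have 1 symbol, 932 several and 9160 none. Background was read from the 95th percentile, on each array, of 83 probe sets of chemosensory receptors. A group with both arrays under it gives a bound or no fold. Genes count as apart when the arrays of 2 groups do not overlap and the higher group is above the reference.

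Signals of every array are given for the sensors, *Atf4*, *Ddit3*, *Xbp1*, *Hspa5*, every gene past the threshold, and the 5 smallest p of each treatment contrast. Of the other pathway genes the 4 smallest p are named. The genes, lists and tests were chosen with earlier results of these data known. Alternatives were quantile normalization, centring on the median, an offset of 50, filters, other moderation, the replicate block, probe set rules, subsets of arrays and leaving out each array. The fit was tested on simulated data. Motifs were searched in RefSeq windows (GRCm38.p6). Figures used Python 3.11.15 and matplotlib 3.10.9.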

Additional observations from a re-analysis of the deposited data

How the results depend on the processing

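The count of genes passing between [BF/S+L/Ep] and vehicle was 0 at 4 h, at 12 h, on average and for the difference of responses under every alternative that reads 1 value per gene. Counting a gene where any of its probe sets passes, an alternative chosen after seeing the data, gave 1 on average (*Cnpy2*, lower) and 0 in the other treatment contrasts, and over time 3 in the vehicle, 1 with [BF/S+L/Ep] and 9 on average. The counts over time, 1 in the vehicle, 1 with [BF/S+L/Ep] and 8 on average, depended on the settings, and the causes were not tested. Without the intensity trend all 3 were 0. With each array centred on its median they were 1, 0 and 5 (1 higher, 4 lower), *Ddit3*, *Gadd45a* and *Dnajb9* being lost. In the vehicle the count was 2 with an offset of 50, 2 with either filter (above the reference on at least 4 or at least 2 arrays), 3 with 1 probe set per gene and 3 with the vehicle arrays alone. With the mean of all probe sets it was 1, but *Mthfd2* in place of *Phgdh*. With [BF/S+L/Ep] it was 2 after quantile normalization, 3 and 2 with the filters and 3 with 1 probe set per gene. With the replicate number as a block the counts were 2, 2 and 8. The numbers were not shown to pair the arrays: deviations of same-numbered arrays correlated between -0.028 and 0.106. Leaving out 1 array gave 1 to 2, 0 to 1 and 3 to 7 genes. When 1 array was left out, the arrays did not overlap in 20 to 24 genes at 4 h and 22 to 27 at 12 h. Over time it was 28 to 34 genes in the vehicle and 28 to 32 with [BF/S+L/Ep]. These counts are higher than with all arrays, since fewer arrays overlap less. The shares of all probe sets with 1 array left out are not given here, so these counts have nothing to be set beside.

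Some values changed sign, none of which had passed. With the mean of all probe sets the difference of *Hsp90b1* at 4 h was 0.078, those of *Phgdh* were -0.10 at 12 h, -0.032 on average and -0.14 for the difference of responses, and that of *Hyou1* for the difference of responses was -0.00178. *Ppp1r15a* at 4 h ranged from -0.072 to 0.53 as arrays were left out. Dim genes such as *Slc7a5*, *Trib3*, *Chac1* and *Vldlr* have only bounds or no fold at 12 h.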
